A study of Macaca mulatta with 449 samples.

Results

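The comparison set the frontal lobe of the rhesus macaque brain against its parietal lobe. RNA sequencing libraries of 10 frontal sub-regions (80 samples) and 9 parietal sub-regions (72 samples) were available from each of 8 animals, out of 408 samples in the gene count table and 449 in the series. Members were taken by the sub-region in each sample's label, and the reads of an animal's frontal samples and of its parietal samples were added up, which gave 16 lobe sums paired within animals. The lobes were set by the sub-region labels and the study's own region table, not by read counts. The sample left out in a repeat of the comparison, by contrast, was picked for its pituitary hormone reads. The brains were those of rhesus macaques: 4 young animals of 3.2 to 5 years (animals 4 and 10, female, and animals 7 and 8, male) and 4 mid-aged animals of 9.8 to 10 years (animals 6 and 11, female, and animals 2 and 3, male). The frontal set held the middle, inferior, posterior superior and anterior superior frontal gyri, the anterior arcuate sulcus gyrus, the ventromedial prefrontal cortex and the medial orbital gyrus (together called prefrontal here), the insula, and the superior and inferior precentral gyri. The parietal set held the superior and inferior postcentral gyri, the superior parietal lobule, the posterior superior parietal gyrus, the intraparietal sulcus, the marginal gyri and the angular gyrus (the last 5 called parietal association here), and the annectant gyri and cuneus gyrus. The insula was thus counted as frontal and the cuneus as parietal, as the study's own region table places them, although anatomy texts give the insula a lobe of its own and the cuneus to the occipital lobe.

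Neocortex is built from layers of glutamatergic projection neurons and GABAergic interneurons. Primary motor cortex in the precentral gyrus and primary somatosensory cortex in the postcentral gyrus are heavily myelinated and rich in parvalbumin interneurons, whereas prefrontal, insular and posterior parietal association cortex have more feedback connections and denser dendritic spines. Receptor densities, calcium-binding proteins and axon guidance molecules are known to change gradually from one cortical area to the next. Samples were pieces of tissue with all their cells, so fewer cells of a type and less RNA per cell cannot be told apart.

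Each frontal library held 8118268 to 31083490 counted reads (median 10628607) and each parietal library 7784678 to 15173822 (median 10976587). The lobe sums held 88749824 to 154965715 and 84750913 to 105250671 reads. The deepest library was the insula of animal 10, so that animal's frontal sum leans towards the insula. Both lobes held the markers of cortex: CUX2, a transcription factor of upper-layer projection neurons, lay between 67.7 and 99.1 CPM (counts scaled to the size of the library) in the frontal sums and between 51.6 and 78.3 CPM in the parietal sums, and GAD1, the GABA-synthesising enzyme, between 405 and 470 and between 414 and 517 CPM. A single library stood apart. The medial orbital gyrus of animal 11 held 36604 reads of the pituitary hormone genes PRL, GHV and CGA, against at most 309 in any other sample of either lobe.

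More genes were far apart in the frontal direction than in the parietal one, while small differences were balanced. Of 17709 genes tested with edgeR's quasi-likelihood test with the animal as block, 4436 were higher in the frontal lobe at an FDR under 0.05 (25% of those tested) and 4463 were higher in the parietal lobe (25.2%). The median absolute log2 fold change over all genes tested was 0.14, so most of these calls were small. A difference of over 2-fold was called for 259 genes in the frontal direction (1.46%) and for 73 genes in the parietal direction (0.412%). Of the 259 genes, 236 had the same direction in all 8 animals, as did 69 of the 73. These genes were picked by the paired test and by fold, and the same count over all genes tested is not given here. Over all genes tested, the 8 frontal sums lay wholly above the 8 parietal sums for 238 genes (1.34%) and wholly below them for 198 genes (1.12%). Without the animal as block, 1088 and 823 genes passed the same threshold, and 202 and 62 of them were over 2-fold apart.

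**Figure D1:**
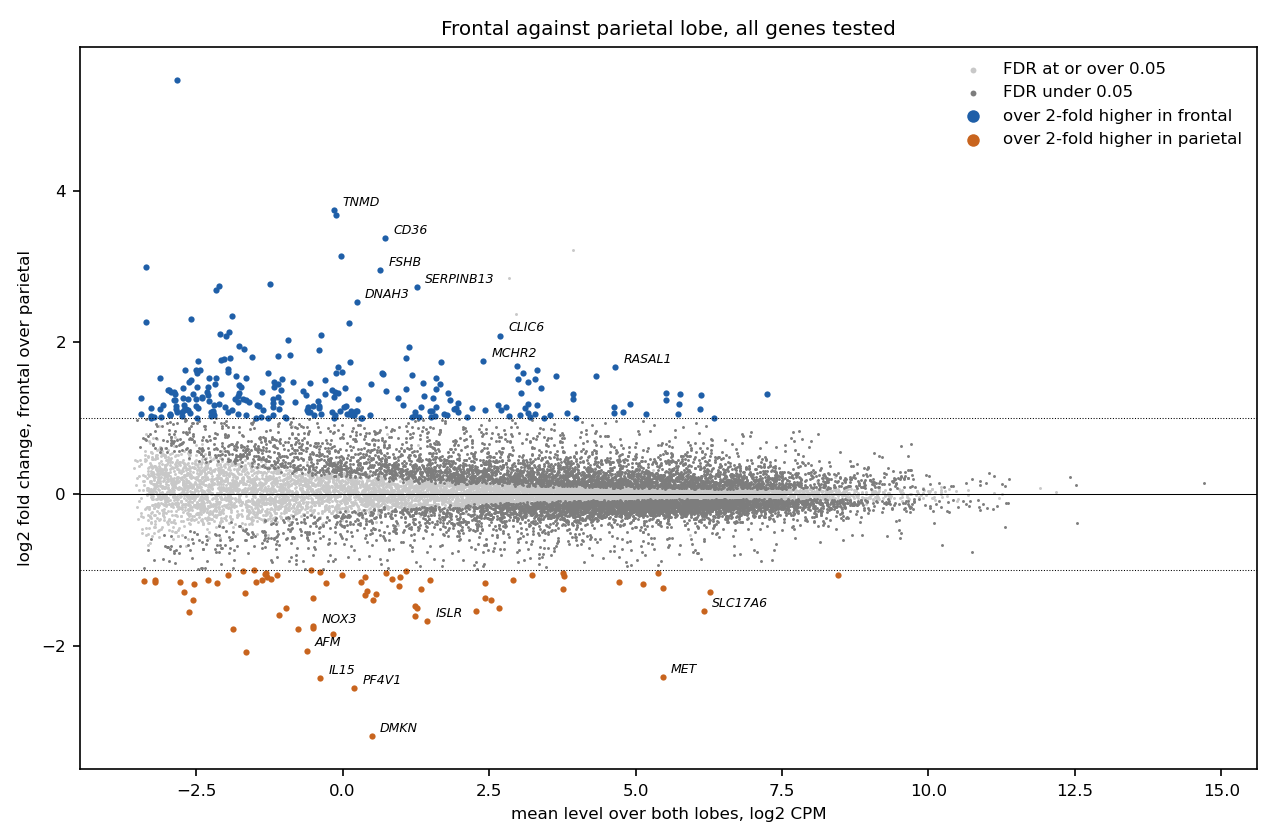
Each point is 1 of the 17709 genes tested, with its mean level over both lobes (x axis, log2 CPM) against its log2 fold change, frontal over parietal (y axis). Blue points are the 259 genes over 2-fold higher in the frontal lobe and orange points the 73 over 2-fold higher in the parietal lobe. The dotted lines mark a 2-fold difference, and 16 of the genes described in the text are named.

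The 15 genes named for the frontal lobe, those with the largest folds, had log2 fold changes from 1.64 to 3.75. MCHR2, a receptor of melanin-concentrating hormone, ranged from 4.68 CPM through a median of 8.38 CPM to 9.91 CPM in the frontal sums and from 1.90 through 2.37 to 3.22 CPM in the parietal sums. The lobes did not overlap, and the log2 fold change was 1.75 ± 0.09 (SE, n = 8 animals). MCHR2 was highest in the medial orbital gyrus, with 12.7 CPM on average, and lowest in the inferior postcentral gyrus, with 1.29 CPM. CD36, a scavenger receptor that takes up fatty acids, had 0.897, 2.59 and 6.76 CPM as lowest, median and highest frontal value and 0.0958, 0.307 and 0.396 CPM in the parietal sums. Its log2 fold change of 3.38 ± 0.18 was among the largest, and the insula led with 11.1 ± 6.2 CPM (SD, n = 8 animals), followed by the ventromedial prefrontal cortex with 6.44 ± 2.2 CPM. The precentral gyri, at 0.272 ± 0.18 CPM, lay below the parietal association sub-regions in CD36, at 0.374 ± 0.16 CPM.

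The enzyme genes PRKCD, RASAL1 and ST8SIA2 differed without overlap between the lobes. PRKCD, protein kinase C delta, ranged from 11.3 through 15.2 to 22.03 CPM in the frontal sums and from 3.44 through 4.83 to 6.64 CPM in the parietal sums. Every frontal sum was above every parietal sum, and the log2 fold change was 1.64 ± 0.05. Its level was similar across the frontal zones, 14.7 ± 2.8 CPM in the prefrontal sub-regions, 18.1 ± 7.0 CPM in the insula and 13.5 ± 3.4 CPM in the precentral gyri, and it was 6.42 ± 1.8 CPM in the parietal association sub-regions and 2.05 ± 0.86 CPM in the annectant gyri and cuneus. RASAL1, a GTPase-activating protein that turns off Ras, had 28.2, 34.2 and 59.4 CPM in the frontal sums and 7.34, 10.9 and 24.2 CPM in the parietal sums, again without overlap, with a log2 fold change of 1.68 ± 0.09. Its means ran from 62.2 CPM in the ventromedial prefrontal cortex to 4.26 CPM in the cuneus. RASAL1 overlaps CFAP73 in the RefSeq table for T2T-MMU8v2.0, and the strand setting of the read counting is not given in the sources used here, so reads of this pair may not be separable. ST8SIA2, the enzyme that puts polysialic acid on the neural cell adhesion molecule, had frontal values of 0.510, 1.17 and 1.75 CPM and parietal values of 0.133, 0.342 and 0.459 CPM.

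The other named frontal genes included several that are better known outside the brain. SERPINB13, a protease inhibitor, ranged from 1.55 through 4.54 to 5.99 CPM in the frontal sums and from 0.192 through 0.652 to 1.22 CPM in the parietal sums, a log2 fold change of 2.72 ± 0.12 without overlap. Its pattern resembled that of CD36, with 10.1 ± 4.2 CPM in the insula and 0.842 ± 0.35 CPM in the precentral gyri. FSHB, the beta chain of follicle-stimulating hormone, had 1.41, 2.16 and 5.96 CPM in the frontal sums and 0.149, 0.307 and 0.591 CPM in the parietal sums, with 11.8 ± 5.5 CPM in the insula and 3.89 ± 1.7 CPM in the ventromedial prefrontal cortex. The log2 fold change of FSHB was 2.95 ± 0.11 with the sample that held pituitary reads and 2.93 without it. TNMD, a membrane protein of tendon, showed the largest fold of the named genes at 3.75 ± 0.31, but its frontal values ran from 0.211 through 0.585 to 9.23 CPM. The highest, in animal 4, was far above the next highest of 1.27 CPM, and without animal 4 the log2 fold change was 3.35. Its parietal sums reached 0.452 CPM at most (median 0.0683 CPM), and the insula, at 0.132 ± 0.12 CPM, lay within the range of the parietal sub-region means.

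CLIC6, a chloride channel protein found in choroid plexus, ranged from 3.23 through 8.58 to 22.2 CPM in the frontal sums and from 0.629 through 1.96 to 6.27 CPM in the parietal sums, with a log2 fold change of 2.09 ± 0.10. It was higher on the frontal side in all 8 animals although the ranges overlapped. NPPA, the precursor of atrial natriuretic peptide, varied widely between animals, from 0.711 to 10.7 CPM in the frontal sums and from 0.0476 to 3.81 CPM in the parietal sums. NPPA was higher on the frontal side within every animal, and it was the only one of the 30 named genes that missed the threshold without the animal as block (edgeR FDR = 0.161). The remaining 5 named frontal genes were DNAH3 (an axonemal dynein), RHAG (an ammonium transporter of red cells), FER1L6 (a ferlin), PNMA6F and KRT19 (a keratin), with log2 fold changes from 1.68 to 2.53. PNMA6F belongs to a family of near-identical genes, so its reads may be shared with other copies. DNAH3 was the only one of the 15 genes for which all 10 frontal sub-region means lay above all 9 parietal ones.

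**Figure D2:**
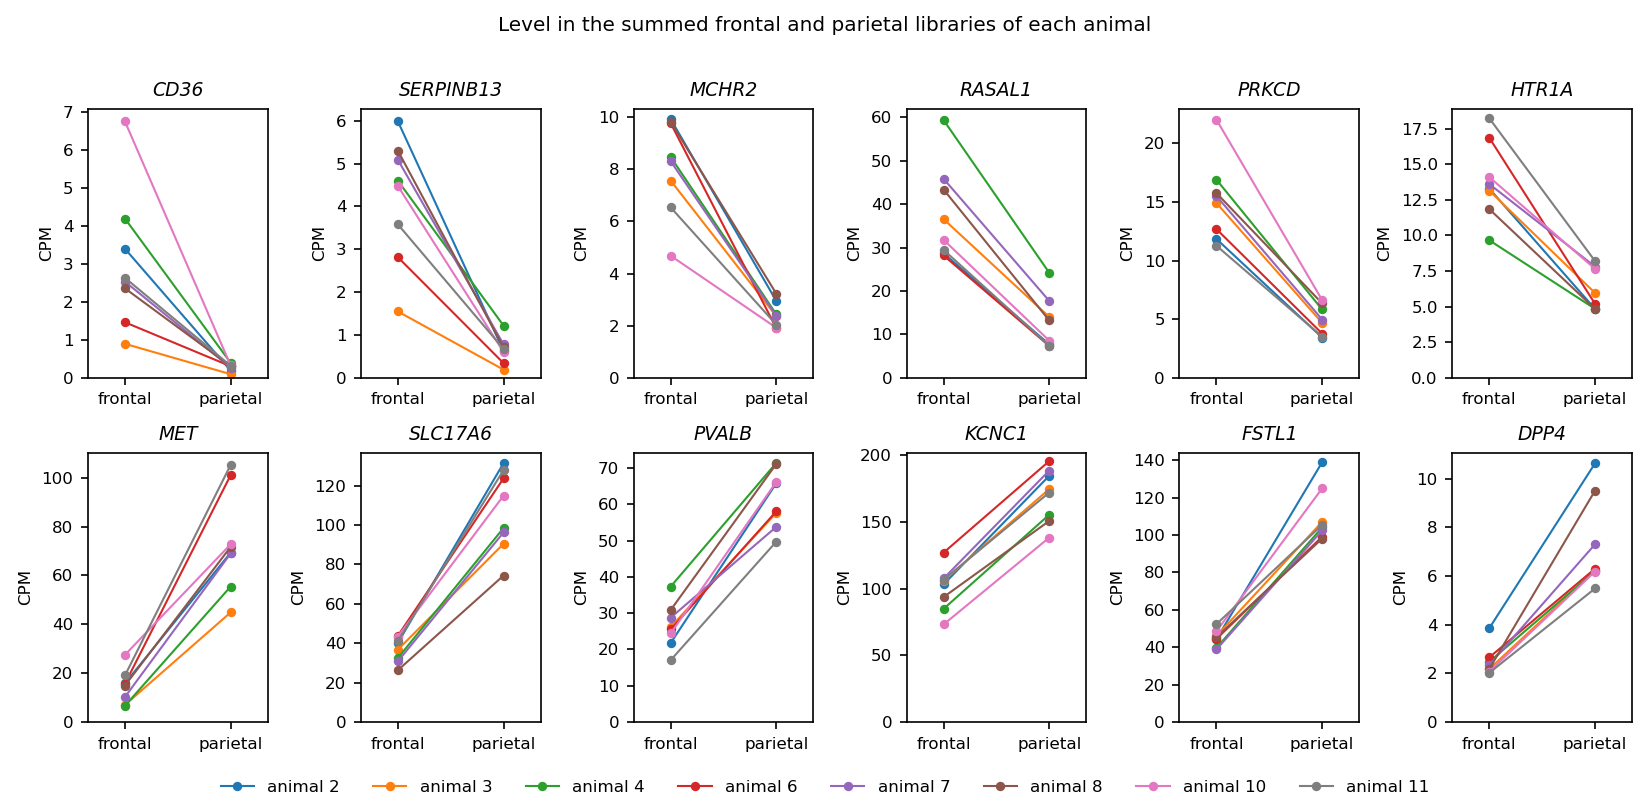
Level in CPM (y axis, from 0) of 12 genes in the summed frontal and the summed parietal libraries, with each of the 8 animals as a line of its own color. The 6 genes of the top row were higher in the frontal sum of every animal and the 6 of the bottom row in the parietal sum of every animal, and for each of the 12 genes the lobes did not overlap.

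On the parietal side, a growth factor receptor and a transmitter transporter stood out in every animal. MET, the receptor tyrosine kinase for hepatocyte growth factor, had 6.603, 15.3 and 27.5 CPM as lowest, median and highest frontal value and 44.9, 70.5 and 105 CPM in the parietal sums. No frontal sum reached the lowest parietal sum, and the log2 fold change was -2.42 ± 0.17 (negative values mean higher in the parietal lobe). The frontal lobe was not uniform in MET. The insula, at 52.4 ± 19 CPM, was at the level of the postcentral gyri, at 55.3 ± 19 CPM, whereas the prefrontal sub-regions had 10.1 ± 4.7 CPM and the precentral gyri 5.49 ± 2.3 CPM. The angular gyrus was highest of the 19 sub-regions with 131 ± 37 CPM, and the posterior superior frontal gyrus lowest with 4.45 ± 2.3 CPM. Without the insula the log2 fold change of MET grew to -3.05.

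SLC17A6, the vesicular glutamate transporter VGLUT2 that is known from thalamic afferents, ranged from 26.3 through 38.4 to 43.7 CPM in the frontal sums and from 74.3 through 107 to 131 CPM in the parietal sums. The lobes did not overlap, and at -1.54 ± 0.04 it had the smallest SE of the 30 named genes. Its zones ran from 31 ± 12 CPM in the precentral gyri and 33.3 ± 5.6 CPM in the prefrontal sub-regions through 71.3 ± 14 CPM in the insula to 88.4 ± 20 CPM in the parietal association sub-regions, 126 ± 19 CPM in the postcentral gyri and 137 ± 36 CPM in the annectant gyri and cuneus. DPP4, a cell surface peptidase, had 2.02, 2.27 and 3.86 CPM in the frontal sums and 5.49, 6.26 and 10.6 CPM in the parietal sums, with 13.8 ± 4.5 CPM in the annectant gyri and cuneus.

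DMKN, a secreted protein of skin, had the largest parietal fold at -3.19 ± 0.24, with 0.108, 0.204 and 0.559 CPM in the frontal sums and 1.504, 2.51 and 4.27 CPM in the parietal sums. All 9 parietal sub-region means of DMKN lay above all 10 frontal ones, as they did for AFM (a vitamin E carrier of plasma) and IL15 (a cytokine of T cells and natural killer cells). IL15 had 0.0952, 0.204 and 0.406 CPM in the frontal sums and 0.271, 1.34 and 2.93 CPM in the parietal sums, so the lobes overlapped. PF4V1, a chemokine with a near-identical copy in PF4, was highest in the inferior postcentral gyrus, with 3.78 ± 1.9 CPM, and in the ventromedial prefrontal cortex its mean was 0.0309 CPM. ISLR, a secreted leucine-rich repeat protein, had 6.02 ± 1.4 CPM in the postcentral gyri and 6.58 ± 1.2 CPM in the annectant gyri and cuneus, but only 2.34 ± 0.82 CPM in the parietal association sub-regions between them and 1.402 ± 0.41 CPM in the prefrontal sub-regions.

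OSTN, which encodes the secreted peptide osteocrin, was likewise high in the postcentral gyri and the cuneus. Its frontal sums ran from 2.05 through 3.38 to 4.21 CPM and its parietal sums from 5.97 through 8.28 to 11.6 CPM. The cuneus had 24.8 ± 17 CPM and the superior postcentral gyrus 15.5 ± 8.2 CPM, while the parietal association sub-regions, at 3.51 ± 1.3 CPM, were at the level of the precentral gyri, at 3.35 ± 1.7 CPM. UTS2B, the precursor of a urotensin II-related peptide, is the neighbor of OSTN in the RefSeq table, and its values ran alongside those of OSTN in every zone, for example 15.0 ± 8.3 CPM in the annectant gyri and cuneus against 15.9 ± 8.8 CPM for OSTN. UTS2B and OSTN do not overlap in that table, unlike RASAL1 and CFAP73, but reads of this pair may still not be separable. NOX3, a superoxide-generating oxidase, was concentrated in the annectant gyri and cuneus, at 3.03 ± 1.8 CPM against 0.531 ± 0.24 CPM in the parietal association sub-regions. HPSE2 (a heparanase homolog), MATN4 (a matrilin of the extracellular matrix) and TMEM200B had log2 fold changes from -1.38 to -1.501. TMEM200B overlaps EPB41 in the same table, which sets the same limit on its reads. DNAH3, ST8SIA2, RHAG, FER1L6, PRKCD, MET, HPSE2 and OSTN overlap loci that have no gene name there.

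**Figure D3:**
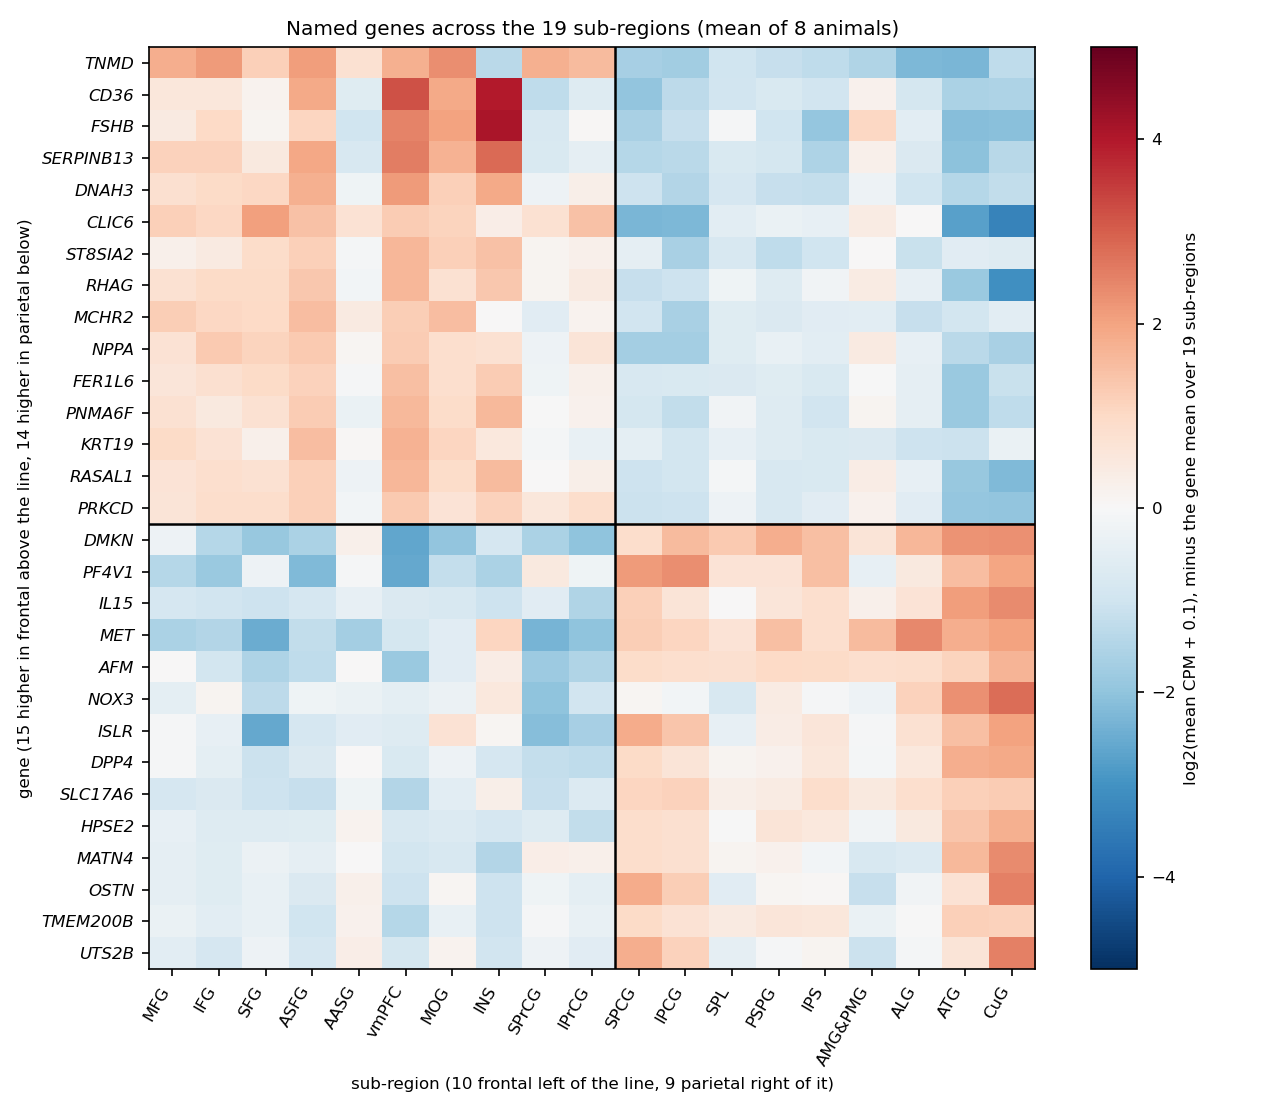
Rows are 29 of the named genes, 15 higher in the frontal lobe above the line and 14 higher in the parietal lobe below it, and columns are the 19 sub-regions. Color gives log2 of the mean CPM of 8 animals plus 0.1, less the gene's own mean over the sub-regions. CD36 and FSHB peak in the insula (INS) and MET in the angular gyrus (ALG), and OSTN and UTS2B are high in the postcentral gyri (SPCG and IPCG) and cuneus (CuG).

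Few of the 332 genes over 2-fold apart separated the lobes sub-region by sub-region. Among the 259 frontal genes, the sub-region with the highest mean was the ventromedial prefrontal cortex for 88 and the insula for 75, and the lowest mean was in the cuneus for 94 and in the annectant gyri for 81. For 18 of the 259 genes every frontal sub-region mean lay above every parietal one. Among the 73 parietal genes, the highest mean was in the cuneus for 39 and the lowest in the ventromedial prefrontal cortex for 30, and for 6 genes every parietal sub-region mean was above every frontal one. These sub-region counts were made for the 332 genes alone, which were picked for their lobe difference. The matching shares over all genes tested are not given here.

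Leaving out sub-regions changed the size of many differences. Without the annectant gyri and cuneus, 157 of the 259 frontal genes and 35 of the 73 parietal genes stayed over 2-fold apart, and 247 and 68 stayed past the FDR threshold in their direction. Counted afresh, 161 and 37 genes were then over 2-fold apart. In these counts a gene that fell under the filter on low counts is not counted as staying: 17 of the 332 genes did so here, 9 without the insula and 20 without the pre- and postcentral gyri. All of the genes still tested kept their direction and call without the annectant gyri and cuneus and without the insula, and all but 1 did so without the pre- and postcentral gyri. Without the annectant gyri and cuneus, NOX3 moved to -0.65, MATN4 to -0.64, IL15 to -1.82, UTS2B to -0.87 and OSTN to -0.90. Without the insula, 199 and 64 genes stayed over 2-fold apart. The insula-rich genes CD36 and FSHB moved to 2.65 and 2.04 and stayed over 2-fold. Without the pre- and postcentral gyri, which face each other across the central sulcus, 216 and 63 genes stayed over 2-fold apart, and ISLR moved to -1.28. With each sub-region scaled to the same depth before summing, which takes the extra weight off the deep insula of animal 10, CD36 was at 3.25, FSHB at 2.77 and MET at -2.51.

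**Figure D4:**
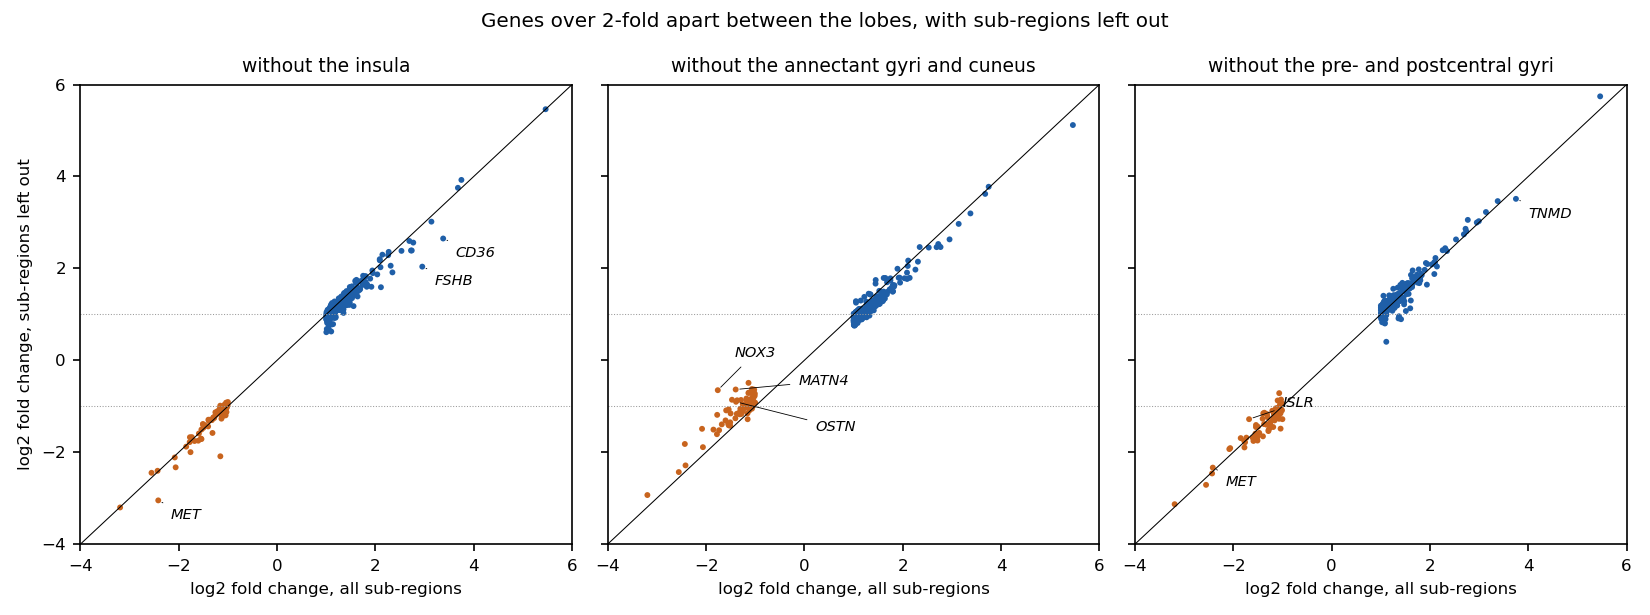
Log2 fold change, frontal over parietal, of the 332 genes over 2-fold apart, with all sub-regions (x axis) and with sub-regions left out (y axis): the insula, the annectant gyri and cuneus, and the pre- and postcentral gyri. The diagonal is no change and the dotted lines mark 2-fold. Genes under the filter on low counts in a panel (9, 17 and 20 from left to right) are not drawn there. Parietal genes in orange move towards 0 in the middle panel, where 35 of 73 stay over 2-fold, and MET moves away from 0 in the left panel.

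Glutamate receptor genes leaned to the frontal side. Of 22 glutamate receptor subunit genes tested, 18 were higher in the frontal lobe and 1, GRM4, in the parietal lobe, with a median log2 fold change of 0.31. Over all genes tested, 25% were called in the frontal and 25.2% in the parietal direction and the median was 0.00, and the other lists are read against these values. GRIA1, an AMPA receptor subunit, had 256, 303 and 329 CPM in the frontal sums and 162, 199 and 220 CPM in the parietal sums, without overlap. GRIN2B, the NMDA receptor subunit that slows the current, was higher by 0.72 ± 0.22 on the log2 scale, with 4.11, 10.8 and 18.6 CPM against 1.81, 5.66 and 13.7 CPM. GRM3, a presynaptic and glial metabotropic receptor, ranged from 158 to 202 CPM in the frontal sums and from 119 to 157 CPM in the parietal sums. The obligatory NMDA subunit GRIN1 did not pass the test, at 609 CPM (median) in the frontal and 604 CPM in the parietal sums. Of 12 GABA-A receptor subunit genes, 4 were higher in the frontal lobe and 2, among them GABRD, in the parietal lobe, while 6 did not pass the test and the median log2 fold change was 0.06, close to that of all genes. GABRA3 had 28.3, 32.9 and 39.2 CPM in the frontal sums and 13.2, 14.5 and 19.3 CPM in the parietal sums, and GABRA5, the subunit of extrasynaptic receptors, was higher by 0.82 ± 0.05 on the log2 scale. The other 2 on the frontal side were GABRA2 and GABRB1.

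Of 29 monoamine and acetylcholine receptor genes, 14 were higher in the frontal lobe and 2, CHRNA3 and HTR2C, in the parietal lobe. HTR1A, an inhibitory serotonin receptor, had 9.66, 13.4 and 18.2 CPM in the frontal sums and 4.84, 5.58 and 8.21 CPM in the parietal sums, a log2 fold change of 1.17 ± 0.09. HTR1A was even across the prefrontal sub-regions, insula and precentral gyri (13.4 ± 2.9, 14.4 ± 3.2 and 14.3 ± 5.4 CPM) and lowest in the annectant gyri and cuneus (2.06 ± 0.99 CPM). HTR1E, another inhibitory serotonin receptor, had 7.79, 9.20 and 9.85 CPM against 4.81, 5.47 and 6.61 CPM, and ADRA2C and CHRNA4 were higher by 0.79 and 0.67 on the log2 scale. HTR2A, DRD1 and HTR1B did not pass the test. The count of 14 was 9 without the insula, and the count of 2 was 5 without the annectant gyri and cuneus.

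Of 33 neuropeptide and neuropeptide receptor genes, 13 were higher in the frontal lobe and 8 in the parietal lobe, the latter close to the share over all genes. Of the 13, 4 were over 2-fold. These 4 were MCHR2, NTSR1 (a neurotensin receptor, 1.47 ± 0.14 on the log2 scale), SSTR1 (a somatostatin receptor, 1.14 ± 0.06) and GRP (gastrin-releasing peptide, 1.08 ± 0.07). SSTR1 had 7.28, 11.6 and 16.1 CPM in the frontal sums and 3.77, 5.19 and 7.28 CPM in the parietal sums, with 17.9 ± 4.8 CPM in the insula. The 8 parietal genes stayed within a log2 fold change of -0.47, among them CRHR2 and PDYN, and 5 passed in that direction without the pre- and postcentral gyri.

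Genes of fast-firing neurons leaned to the parietal side. Of 17 genes for fast-firing neurons and the perineuronal net, 13 were higher in the parietal lobe and 2 in the frontal lobe, with a median log2 fold change of -0.42. PVALB, the calcium buffer of basket cells, had 17.04, 25.9 and 37.3 CPM in the frontal sums and 49.8, 62.0 and 71.5 CPM in the parietal sums, a log2 fold change of -1.24 ± 0.08 without overlap. Its zones were 12.3 ± 3.7 CPM in the insula, 25.1 ± 6.4 CPM in the prefrontal sub-regions, 42.8 ± 11 CPM in the precentral gyri, 44.7 ± 6.5 CPM in the parietal association sub-regions, 80.9 ± 13 CPM in the postcentral gyri and 84.5 ± 17 CPM in the annectant gyri and cuneus. The potassium channel KCNC1 (Kv3.1), which repolarises fast spikes, had 73.1, 105 and 127 CPM in the frontal sums against 138, 173 and 196 CPM in the parietal sums. The neurofilament genes NEFH, NEFM and NEFL were higher in the parietal lobe, with log2 fold changes of -0.87, -0.55 and -0.38, and none of them overlapped between lobes. The 2 frontal exceptions, TNR and BCAN, encode matrix proteins made largely by glia.

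Myelin genes had the same lobe direction as most of this list. All 8 oligodendrocyte genes tested were higher in the parietal lobe, from CNP at -0.33 to MBP at -0.76, and their summed level was 1846 to 3085 CPM in the frontal sums and 3182 to 4580 CPM in the parietal sums, without overlap. No member of the list was at 0. By zone the summed level was 1285 ± 413 CPM in the insula, 1859 ± 238 CPM in the prefrontal sub-regions, 5321 ± 1129 CPM in the precentral gyri, 4716 ± 1005 CPM in the postcentral gyri, 3382 ± 435 CPM in the parietal association sub-regions and 4424 ± 536 CPM in the annectant gyri and cuneus. The precentral gyri, on the frontal side, were thus highest. The part of oligodendrocyte RNA in the lobe differences was not tested.

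Interneuron genes as a whole did not follow PVALB. Of 23 tested, 10 were higher in the frontal lobe and 3 in the parietal lobe (PVALB, TAC1 and CRH). NPY, a peptide of somatostatin interneurons, had 11.7, 20.8 and 26.3 CPM in the frontal sums and 8.70, 13.6 and 19.2 CPM in the parietal sums, and RELN, NDNF, ADARB2 and PROX1, markers of interneurons of the upper layers, were higher in the frontal lobe by 0.32 to 0.39 on the log2 scale. GAD1, SLC32A1, SST and VIP did not pass the test.

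Cortical layer genes split. Of 27 tested, 10 were higher in the frontal lobe and 13 in the parietal lobe. On the parietal side, RORB, a factor of granular layer neurons, had 11.8, 21.6 and 38.8 CPM in the frontal sums and 22.2, 38.8 and 76.1 CPM in the parietal sums, and it was lowest in the precentral gyri, at 13.1 ± 6.8 CPM. FOXP2, a factor of deep-layer neurons, had 12.7, 18.9 and 30.3 CPM against 28.2, 36.4 and 50.6 CPM, and all 9 parietal sub-region means were above all 10 frontal ones for both RORB and FOXP2. THEMIS and PCP4 were also higher in the parietal lobe, with log2 fold changes of -1.16 ± 0.12 and -0.76 ± 0.06. On the frontal side, CALB1 (calbindin) was higher by 0.77 ± 0.04, CRYM (a thyroid hormone binding protein) by 0.72 ± 0.07 and RASGRF2 (a Ras exchange factor of upper layers) by 0.54 ± 0.04 on the log2 scale. FEZF2, the master factor of subcortical projection neurons, did not pass the test.

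Channels were divided as well. Of 24 potassium channel alpha subunit genes, 9 were higher in the frontal lobe and 6 in the parietal lobe, the latter close to the share over all genes. KCNG1, a silent subunit, had 19.1, 34.5 and 61.1 CPM in the frontal sums and 7.84, 17.4 and 26.8 CPM in the parietal sums, while KCNH8, at -0.96 ± 0.08, led the parietal side. Of 17 sodium, calcium and HCN channel genes, 9 were higher in the frontal lobe and 3 in the parietal lobe (among them SCN1A and HCN2). CACNA1H, a T-type calcium channel, had 51.7, 63.7 and 78.1 CPM in the frontal sums and 14.6, 29.4 and 39.9 CPM in the parietal sums, a log2 fold change of 1.24 ± 0.11. HCN4 and SCN3B were higher by 1.04 ± 0.07 and 0.89 ± 0.06 on the log2 scale.

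**Figure D5:**
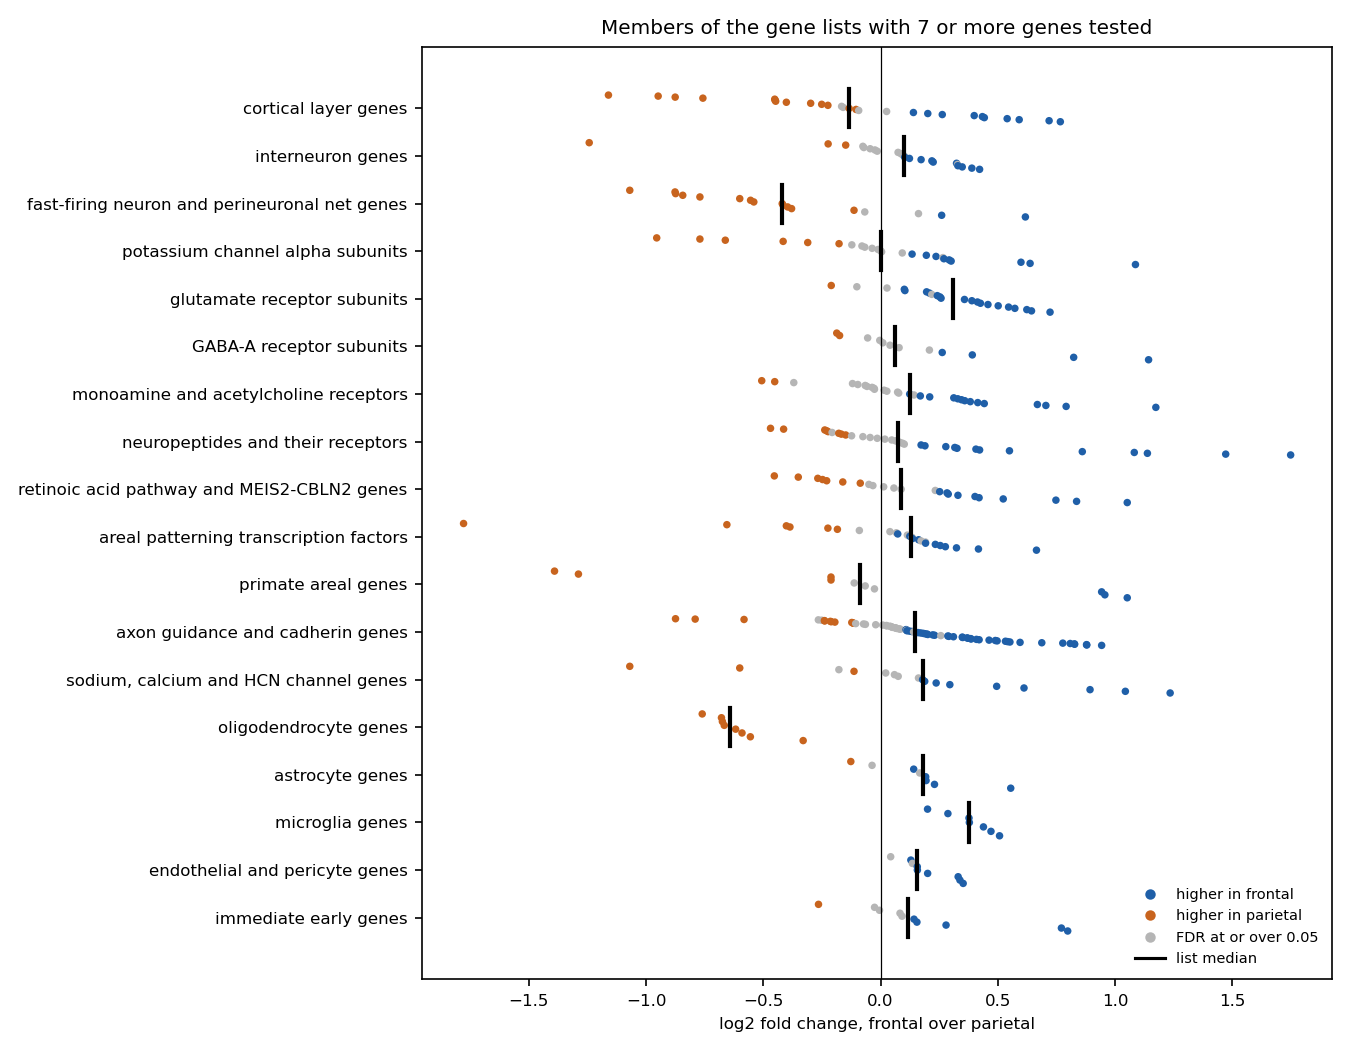
Each point is a gene, placed by its log2 fold change, frontal over parietal (x axis), in the lists with 7 or more genes tested (rows). Blue points passed the FDR threshold in the frontal direction and orange points in the parietal direction, gray points did not pass, and the black bar is the list median. Glutamate receptor subunits lie to the right of 0 (median 0.31), and fast-firing neuron genes (median -0.42) and oligodendrocyte genes (median -0.64) to the left.

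Genes that pattern the cortex or guide axons were called in both directions. Of 24 areal patterning transcription factors, 11 were higher in the frontal lobe and 6 in the parietal lobe, the latter close to the share over all genes. ZIC1 led the frontal side at 0.66 ± 0.06 and TSHZ3, with 24.1, 30.97 and 33.7 CPM in the frontal and 41.2, 46.8 and 56.0 CPM in the parietal sums, did not overlap between lobes. LHX9, at -1.78 ± 0.14, was the largest parietal difference of the list but stayed under 1.5 CPM in every lobe sum. NR2F1 and PAX6, classical graded factors of the embryonic cortex, did not pass the test. Of 23 retinoic acid pathway and MEIS2-CBLN2 genes, 10 were higher in the frontal lobe and 7 in the parietal lobe, the latter not far from the share over all genes. CBLN2, a synapse organiser, had 262, 283 and 313 CPM in the frontal sums and 145, 159 and 174 CPM in the parietal sums, and RBP4, a retinol carrier, had 42.1, 47.2 and 62.0 CPM against 16.6, 23.3 and 31.6 CPM. CBLN2 was 372 ± 37 CPM in the precentral gyri and 292 ± 16 CPM in the prefrontal sub-regions but 121 ± 16 CPM in the insula, at the level of the postcentral gyri (125 ± 18 CPM). MEIS2 differed by 0.25 ± 0.04 on the log2 scale.

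Of the 10 primate areal genes tested, which are known for association or visual cortex, 3 were higher in the frontal lobe (SLIT1, PNMA5 and RBP4) and 4 in the parietal lobe (OSTN, FSTL1, SPOCK3 and SPOCK2). PNMA5 had 39.2, 46.5 and 57.6 CPM in the frontal sums and 19.5, 23.4 and 30.3 CPM in the parietal sums. FSTL1, a secreted follistatin-like protein, had 38.8, 44.9 and 52.4 CPM against 98.1, 105 and 139 CPM and reached 202 ± 51 CPM in the annectant gyri and cuneus. Of 72 axon guidance and cadherin genes, 39 were higher in the frontal lobe and 11 in the parietal lobe, and none was over 2-fold apart. The ligands SLIT1 (0.94 ± 0.04) and EFNB3 (0.88 ± 0.04), the cadherin CDH4 (0.88 ± 0.06) and the semaphorin SEMA3C (0.83 ± 0.06) led the frontal side. The semaphorins SEMA3E (-0.87 ± 0.09) and SEMA7A (-0.79 ± 0.07) and the ephrin EFNA1 (-0.58) led the parietal side.

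Genes of other cell types and tissues differed by less than 2-fold in the lists described here, with the exception of CLIC6. All 7 microglia genes tested were higher in the frontal lobe, from CD68 at 0.20 to CSF1R at 0.51, with summed levels of 82.0 to 119 CPM in the frontal and 59.5 to 89.3 CPM in the parietal sums. Of 8 astrocyte genes 5 were higher in the frontal lobe and 1, FGFR3, in the parietal lobe (summed level 3100 to 3983 against 2843 to 3595 CPM), and GFAP was highest in the insula. Of 9 endothelial and pericyte genes 7 were higher in the frontal lobe and 0 in the parietal lobe (169.8 to 279 against 158 to 260 CPM), and 4 were without the pre- and postcentral gyri. Of 4 choroid plexus genes CLIC6 and KL were higher in the frontal lobe and FOLR1 in the parietal lobe (11.5 to 35.1 against 7.57 to 18.2 CPM), of 6 striatum genes GPR6 and RGS9 in the frontal lobe (178 to 209 against 184 to 214 CPM), and of 3 claustrum genes GNB4 and NTNG2 in the frontal lobe (44.8 to 63.2 against 40.6 to 57.9 CPM). No member of these lists was at 0, and their part in the lobe differences was not tested. HBA, the 1 blood gene tested, did not pass the test. Of 10 immediate early genes 5 were higher in the frontal lobe, led by NPAS4 (0.80 ± 0.08) and NR4A3 (0.77 ± 0.05), and 1, ARC, in the parietal lobe, and 3 were higher in the frontal lobe without animal 3 or without animal 4. Of 5 heat shock genes, HSPH1 and HSPA1L were higher in the parietal lobe, with log2 fold changes of -0.12 and -0.18. No mitochondrially encoded gene could be matched by symbol.

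The comparison was repeated without the medial orbital gyrus sample of animal 11. GHV, a growth hormone gene, had 0, 2.05 and 228 CPM as lowest, median and highest frontal value, the highest being animal 11, and PRL (prolactin) had 0.00635, 2.90 and 77.7 CPM. With that sample the log2 fold changes of GHV and PRL were 3.22 ± 1.36 and 2.38 ± 0.95 and neither passed the test (edgeR FDR = 0.107 and 0.0732). Without it they were 1.63 and 1.44, and both passed (edgeR FDR = 0.0466 and 0.0041). The sample was left out for its reads of these same genes, so neither FDR is support for a lobe difference of GHV or PRL. Such reads were unequal between animals beyond that sample. Reads of PRL, GHV and CGA numbered at most 6 in any sample of animals 2, 6 and 10, whereas the frontal and parietal samples of animal 7 held 2316 and 1432 in all, those of animal 3 held 1065 and 354, those of animal 4 held 697 and 205, those of animal 8 held 428 and 4, and the remaining ones of animal 11 held 802 and 282. What this split contributes to the GHV and PRL calls was not tested. For other genes the repeat changed little: 4434 and 4444 genes were called, 255 and 73 of them over 2-fold, and 251 of the 259 and 72 of the 73 genes stayed over 2-fold apart. Each of the 30 named genes kept its call.

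Sex and age stage were tested as modifiers of the lobe difference, each with 4 animals a side. At an FDR under 0.05, 0 of 17709 genes had a lobe difference that differed between females and males (0% called). With edgeR, 733 genes (4.139%) had an unadjusted p under 0.05. DESeq2, run on 27160 genes, likewise called 0 genes, with 618 (2.275%) unadjusted. Without animal 7, a young male, 240 genes were called, 236 of them with a lobe difference shifted towards the parietal side in females, and without animal 8 a single gene, UBE2H. Between mid-aged and young animals edgeR called 0 genes (0%), with 665 (3.755%) unadjusted. DESeq2 called 1 of its 27160 genes, with 444 (1.635%) unadjusted. That gene was CHRNA1, a muscle-type acetylcholine receptor subunit, whose lobe difference was 0.89 ± 0.15 greater on the log2 scale in mid-aged animals.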

How the data were processed

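RNA from dissected brain tissue was sequenced after removal of ribosomal RNA. Per the labels and the study's methods, the authors trimmed reads with Trim Galore 0.4.4 where needed, aligned them with HISAT2 2.0.5 to Mmul 8.0.1 and counted them per Ensembl gene with HTSeq 0.6.1, and they deposited raw counts of 30807 genes. Whether HTSeq used the strand of the directional libraries is not given in the sources used here. Symbols matched 17572 genes through the gene name table, and no gene coordinates of that build were used.

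Counts were summed per animal and lobe, scaled by TMM and filtered by edgeR's filterByExpr. The lobe effect was tested with edgeR 4.0.16 (R 4.3.3) by the quasi-likelihood F test with the animal as block and Benjamini-Hochberg adjustment. The block rests on the labels, which give both sums the same animal, and the sums of an animal deviated together (r 0.769 to 0.842). SE is the absolute log2 fold change over the square root of F. Levels are TMM-scaled CPM. Lobe by sex and lobe by age stage were interaction terms of the same fit. The code was tested on simulated data. Depth limits low genes: 3 reads in a parietal sum are 0.0303 CPM on average.

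Named genes were, in each direction, the 15 genes with a symbol, at least 1 CPM on average in the higher lobe, an FDR under 0.05, the same direction in 8 of 8 animals and the largest fold, besides list members, up to 5 genes for each interaction and the pituitary hormone genes in the medial orbital gyrus. A few genes that meet this rule or belong to a list are not reported here by name, although they stay in the counts. UBE2H and CHRNA1 fall outside this rule and were named after their values were seen. The members, gene lists and rules were chosen with earlier results of these data known. DESeq2 1.42.0, other filters and scalings, the fit without the block, and fits leaving out each animal or sets of sub-regions were alternatives.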

Additional observations from a re-analysis of the deposited data

Results flagged for a closer look

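In 11 of 61 groups of 8 values tested for a lone extreme sample, 1 value stood apart from the other 7 by Dixon's criterion. Chance does so in about 1 group in 20 for independent groups of normally distributed values. Here the frontal and parietal groups of a gene share their animals, so 11 of 61 cannot be set against that rate. The extreme was the highest value each time. In the frontal sums these were TNMD in animal 4 (9.23 CPM, next 1.27 CPM), FER1L6 in animal 6 (3.45 CPM, next 2.04 CPM), NOX3 in animal 10 (0.748 CPM, next 0.390 CPM), DPP4 in animal 2 (3.86 CPM, next 2.65 CPM), HPSE2 in animal 11 (1.90 CPM, next 1.36 CPM) and TMEM200B in animal 6 (0.709 CPM, next 0.464 CPM). In the parietal sums they were TNMD in animal 4 (0.452 CPM, next 0.109 CPM), DMKN in animal 8 (4.27 CPM, next 2.79 CPM), NOX3 in animal 10 (2.34 CPM, next 1.06 CPM) and MATN4 in animal 2 (4.73 CPM, next 2.19 CPM). TNMD and NOX3 were extreme in both lobes of the same animal. The summed anterior pituitary genes reached 2638 CPM in the medial orbital gyrus of animal 11, against 24.5 CPM in the next highest and 4.46 CPM in the lowest medial orbital gyrus sample. That sample was picked for its pituitary hormone reads, so its flag, 1 of the 11, was fixed beforehand and adds no support.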

How the results depend on the processing

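Over 286 named genes, every alternative kept the direction, with 1 exception: BHLHE22 was at -0.03454 (log2 fold change) without the insula. Strength held less well than direction. Without the replicate block, 147 of the 286 genes were graded weaker and 139 the same. The genes graded weaker numbered 21 without the insula, 21 without the annectant gyri and cuneus, and 1 to 17 under each other alternative. Of the 30 genes named for their size, all kept their call under each alternative but the fit without the replicate block, where NPPA lost it. That fit, which ignores the pairing by animal, gave 1088 frontal and 823 parietal genes, 202 and 62 of them over 2-fold. Genes over 2-fold apart numbered 454 and 115 with a filter of more than 1 count in 3 sums and 413 and 110 with no filter, both of which test more low genes, and 161 and 37 without the annectant gyri and cuneus. Leaving out 1 animal at a time gave 3964 to 4425 frontal and 3923 to 4487 parietal genes, 242 to 280 and 69 to 80 of them over 2-fold. With sex, leaving out 1 animal gave 0 to 240 genes, the 240 without animal 7, and with age stage DESeq2 gave 1. Depth limits genes of few reads, such as TFAP2D with 17 to 53 reads in its frontal sums. Of 50 list counts, 34 moved by over 1.5 times without the replicate block, 5 without the pre- and postcentral gyri, 4 each without the insula, without the annectant gyri and cuneus and without animal 3, and 0 to 3 under each other alternative.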

Other observations

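TFAP2D and DLK1 lie outside the naming rule and were singled out after their values were seen. TFAP2D, an AP-2 family transcription factor, held 17 to 53 reads in the frontal sums and 0 to 3 in the parietal sums, at least 9.12-fold higher against the floor of 3 reads per parietal sum. Its highest sub-region mean was in the medial orbital gyrus, at 1.59 CPM, and the precentral gyri had 0.00612 CPM. DLK1, a growth regulator of the Notch ligand family, held 2 to 1530 reads in the frontal sums (median 26) and 1 to 14 in the parietal sums. Its log2 fold change of 3.68 ± 0.88 dropped to 1.60 without the medial orbital gyrus sample of animal 11 that held pituitary hormone reads. Of the genes over 2-fold apart, 175 of the 259 frontal and 57 of the 73 parietal ones had a symbol, and 125 and 46 reached 1 CPM on average in the higher lobe.

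POU1F1, a pituitary transcription factor, was higher in the parietal lobe, with a log2 fold change of -0.55 ± 0.08, and ranged from 1.59 to 4.27 CPM in the frontal and from 2.90 to 7.09 CPM in the parietal sums. The highest count of PRL, GHV and CGA reads outside the medial orbital gyrus of animal 11 was 309, in the superior parietal lobule of animal 7, of which 230 were PRL.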
